A study of Mus musculus with 35 samples.

Results

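Lipopolysaccharide (LPS), the outer membrane glycolipid of Gram-negative bacteria, was compared with vehicle in wild-type macrophages by RNA sequencing, 24 h after the start of treatment. The libraries were chosen by their labels, as wild-type LPS (2 libraries, replicates 2 and 3) and wild-type vehicle (3 libraries, replicates 1 to 3), which are 5 of the 35 libraries of the series used here. The labels of the series hold no replicate 1 of wild-type LPS, which was thus not analysed here. The cells were bone marrow-derived macrophages of C57BL/6 mice, grown with L929-conditioned medium, which supplies the growth factor M-CSF. They then received DMSO as vehicle or 100 ng/ml LPS. Of 47069 gene identifiers, 11454 had a mean of at least 1 FPKM over the 5 libraries and were tested. FPKM, the fragments per kilobase of gene in a library scaled to a fixed number of fragments, is a level corrected for gene length. A further pair of groups served for comparison: wild-type macrophages with 1 µg/ml DAMPs (damage-associated molecular patterns, whose composition the labels do not give, 3 libraries), and C57BL/6 macrophages labelled AMPKa1-/- with vehicle or LPS (3 libraries each). Libraries that had also received 100 nM dexamethasone (Dex), a glucocorticoid, alone or with LPS in both genotypes and with DAMPs in wild type (3 libraries each), entered the estimate of the spread and the levels of H2 genes only. The study gives its N as cultures from individual mice, so the spread between libraries is that between cultures.

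LPS is carried by CD14 to a receptor of TLR4 and MD-2 on the macrophage surface. From there the adaptor MyD88 leads to NF-kB, AP-1 and early cytokine genes. From endosomes, TRIF leads to IRF3, interferon beta and, through the interferon receptor, to interferon-stimulated genes. Macrophages treated in this way are known for secreting inflammatory cytokines and chemokines, for making nitric oxide and itaconate, and for taking up more glucose.

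All 10 macrophage markers were detected. Their summed level was 21903, 27904 and 21955 FPKM in vehicle replicates 1 to 3 and 19266 and 16396 FPKM in LPS replicates 2 and 3, the order in which values are given throughout. Lyz2, encoding lysozyme, was the most abundant of them, with 17922, 23014 and 18029.7 FPKM in vehicle and 14161 and 11553 FPKM with LPS. It was lower in both LPS libraries than in any vehicle library but was not called, with a log2 fold change of −0.61, SE 0.24, adjusted p = 0.057. Spi1, the gene of the myeloid factor PU.1, was not called either (−0.20). Adgre1, encoding F4/80, rose by 0.92 on the log2 scale, whereas Csf1r, the M-CSF receptor, changed by −1.34 and Cd68, a lysosomal glycoprotein, by −3.02, so that 3 of the 10 markers were called higher and 4 lower. In bulk RNA, fewer cells of a type and less RNA per cell cannot be told apart.

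Markers of other cell types were low, with exceptions. The 14 neutrophil genes summed to 118, 59.97 and 90.6 FPKM in vehicle and to 290 and 232 FPKM with LPS. Csf3r, the G-CSF receptor, was the most abundant of them (75.97, 53.4 and 68.4 and then 127 and 106 FPKM), and Camp, a granule peptide, went from 1.36, 0.157 and 0.396 to 133 and 113 FPKM. By contrast Mmp8, neutrophil collagenase, fell from 9.31, 4.73 and 14.7 to 1.15 and 0.667 FPKM, and Ngp, a granule protein, had 4.72, 0.195 and 0.778 FPKM in vehicle and 0 with LPS (not called). Of the 14 genes 3 rose and 1 fell, and the defining genes Ly6g, Ctsg and Retnlg were at 0 in all 5 libraries. Among 8 T cell genes Cd4, which fell from 17.9, 15.9 and 15.6 to 1.18 and 0.735 FPKM, was the most abundant, Cd28, a costimulatory receptor, fell from 11.7, 16.9 and 15.7 to 0.0416 and 0 FPKM, and Cd3d was at 0. Among 6 endothelial genes Kdr, a VEGF receptor, rose from 1.17, 2.69 and 1.53 to 44.96 and 52.9 FPKM and Pecam1, an adhesion molecule, from 0.484, 0.577 and 0.324 to 3.10 and 4.41 FPKM, whereas Vwf fell from 22.97, 15.95 and 36.1 to 1.77 and 0.993 FPKM. The 7 stromal genes summed to 18.6, 1.52 and 10.1 FPKM in vehicle and 18.2 and 18.7 FPKM with LPS. Among them Dcn, at 0.384, 0 and 0.245 and then 3.45 and 3.01 FPKM, Lum, at 0 in vehicle and 3.81 and 6.43 FPKM with LPS, and Pdgfrb, at 0.271, 0.0330 and 0.324 and then 4.53 and 2.29 FPKM, were called higher, whereas the collagen genes were not called. The part of these marker genes in the results was not tested. The 8 B cell genes summed to at most 57.0 FPKM, nearly all of it Blnk, and the lists of NK cells, mast cells, dendritic cells and erythroid cells to under 3 FPKM in each library.

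Depth was read from the FPKM steps of weakly expressed genes. It came to 18389603, 16805391 and 19973568 fragments for vehicle and to 21260398 and 23821663 for LPS. Across genes, log2(FPKM + 1) correlated with r = 0.985 between the LPS libraries and 0.982 to 0.992 between the vehicle libraries, against 0.792 to 0.811 between treatments. The wild-type libraries numbered 2 stood apart at the major histocompatibility locus. H2-Q7, a class I gene, had at most 0.181 FPKM in the 6 wild-type libraries of any treatment numbered 2 and 2.01 to 265 FPKM in the other 11. H2-D1 had 683 to 1420 FPKM in the former and 1886 to 6488 FPKM in the latter. H2-K1 and H2-Ab1 were also low in these libraries, but the ranges over treatments overlapped. Among the libraries labelled AMPKa1-/- the 8 numbered 1 or 2 were the low ones, with at most 0.150 FPKM of H2-Q7 and 595 to 1208 FPKM of H2-D1, against 1.12 to 343 and 2454 to 6294 FPKM in the 4 numbered 3. These genes have near-identical neighbours, among which reads may be divided, and they differ in sequence between haplotypes. The labels give C57BL/6 for all of the libraries, and whether the mice shared one haplotype at this locus was not tested, so that low values of these genes need not mean low expression. List counts that move by over 1.5 times without these libraries are given with and without the wild-type libraries numbered 2, a check chosen after seeing the data.

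**Figure D1:**
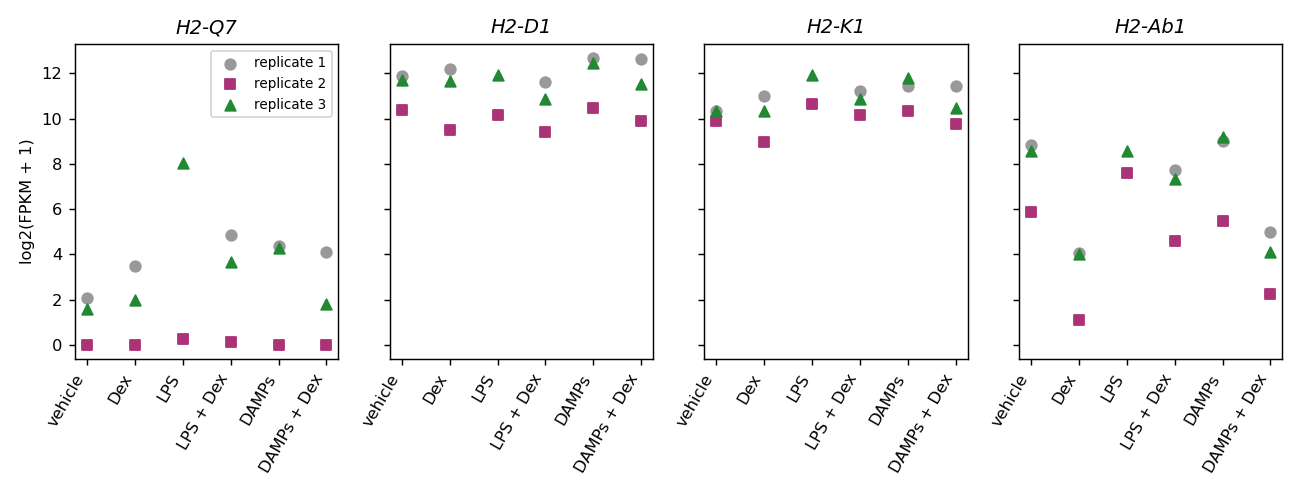
Levels of H2-Q7, H2-D1, H2-K1 and H2-Ab1 as log2(FPKM + 1) in the 17 wild-type libraries, by treatment (x axis) and replicate number (symbols, 1 library each). H2-Q7 is at or near 0 in each of the 6 libraries numbered 2 and above 2 FPKM in the other 11.

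The response to LPS took in much of the measured transcriptome. In the limma fit on log2(FPKM + 1), at a Benjamini-Hochberg adjusted p under 0.05, 2173 of 11454 genes were higher (19.0%) and 3777 lower (33.0%) with LPS. The LPS libraries lay above all vehicle libraries in 3132 genes (27.3%) and below all of them in 5152 (45.0%). Rises reached further than falls: 149 genes rose and 46 fell by at least 4 on the log2 scale. The median gene changed by −0.18. When each library was centred on one median, the split became 2803 higher and 3149 lower, and 2792 higher and 3347 lower with quantile normalization, so that 36.5% of calls were higher as reported, 47.1% after centring and 45.5% after quantile normalization. Of the genes called higher 336 had a vehicle mean under 1 FPKM, and 586 of those called lower had an LPS mean under 1 FPKM. Such genes passed the filter through the group in which they were high, so that the counts for lists below are descriptions, to be read against 19.0% higher, 33.0% lower and a median of −0.18 over all genes tested.

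The most abundant transcripts were replaced in part, with Lyz2, Fth1, Ftl1 and Tmsb4x among the leading 10 of both groups. In vehicle the 10 leading genes, headed by Lyz2, the ferritin chains Ftl1 and Fth1, and Ctsd (cathepsin D), made up 12.2% to 13.2% of the summed FPKM. With LPS the leading 10 made up 19.9% and 21.3%. Saa3, a serum amyloid, took 7.12% and 7.20% of the sum in the LPS libraries, Fth1 4.10% and 4.58%, and Il1b 1.84% and 2.10%. These genes were named after their values were seen.

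**Figure D2:**
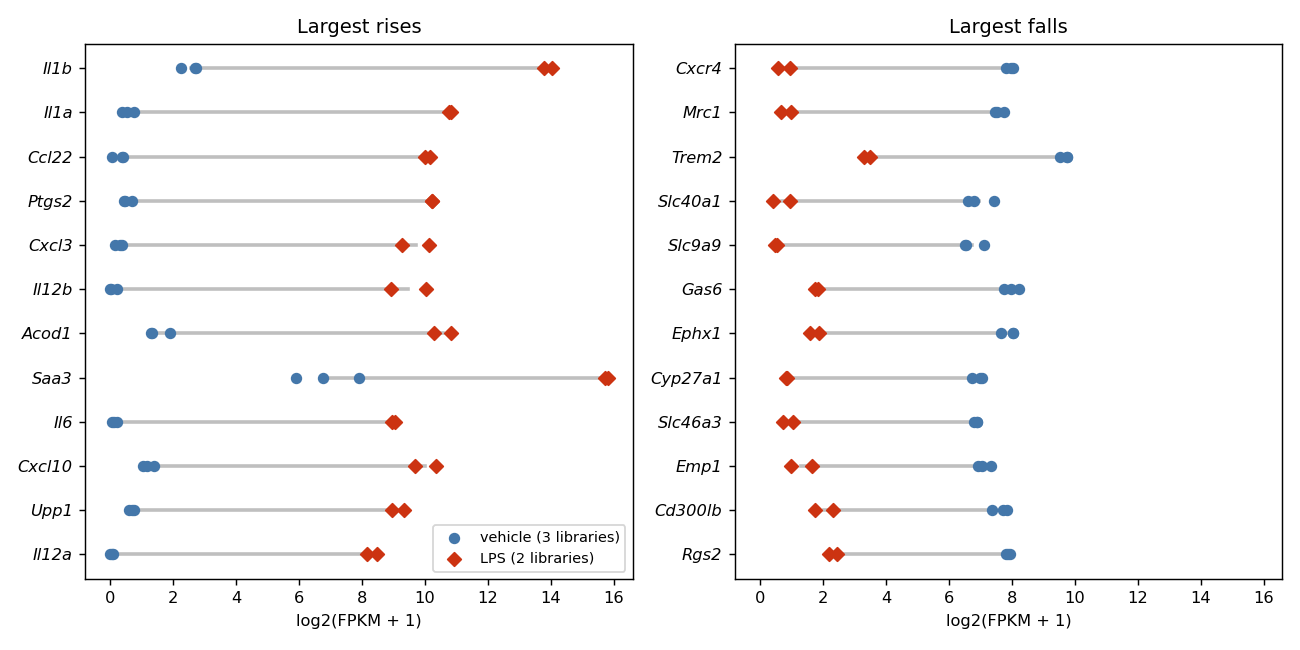
Levels as log2(FPKM + 1) of the 12 genes with the largest rises (left) and the 12 with the largest falls (right) among called protein-coding genes of at least 10 FPKM in the higher group. Circles are vehicle libraries, diamonds LPS libraries and grey bars join the group means, and within each of these 24 genes the groups do not overlap, which the choice of genes required.

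**Figure D3:**
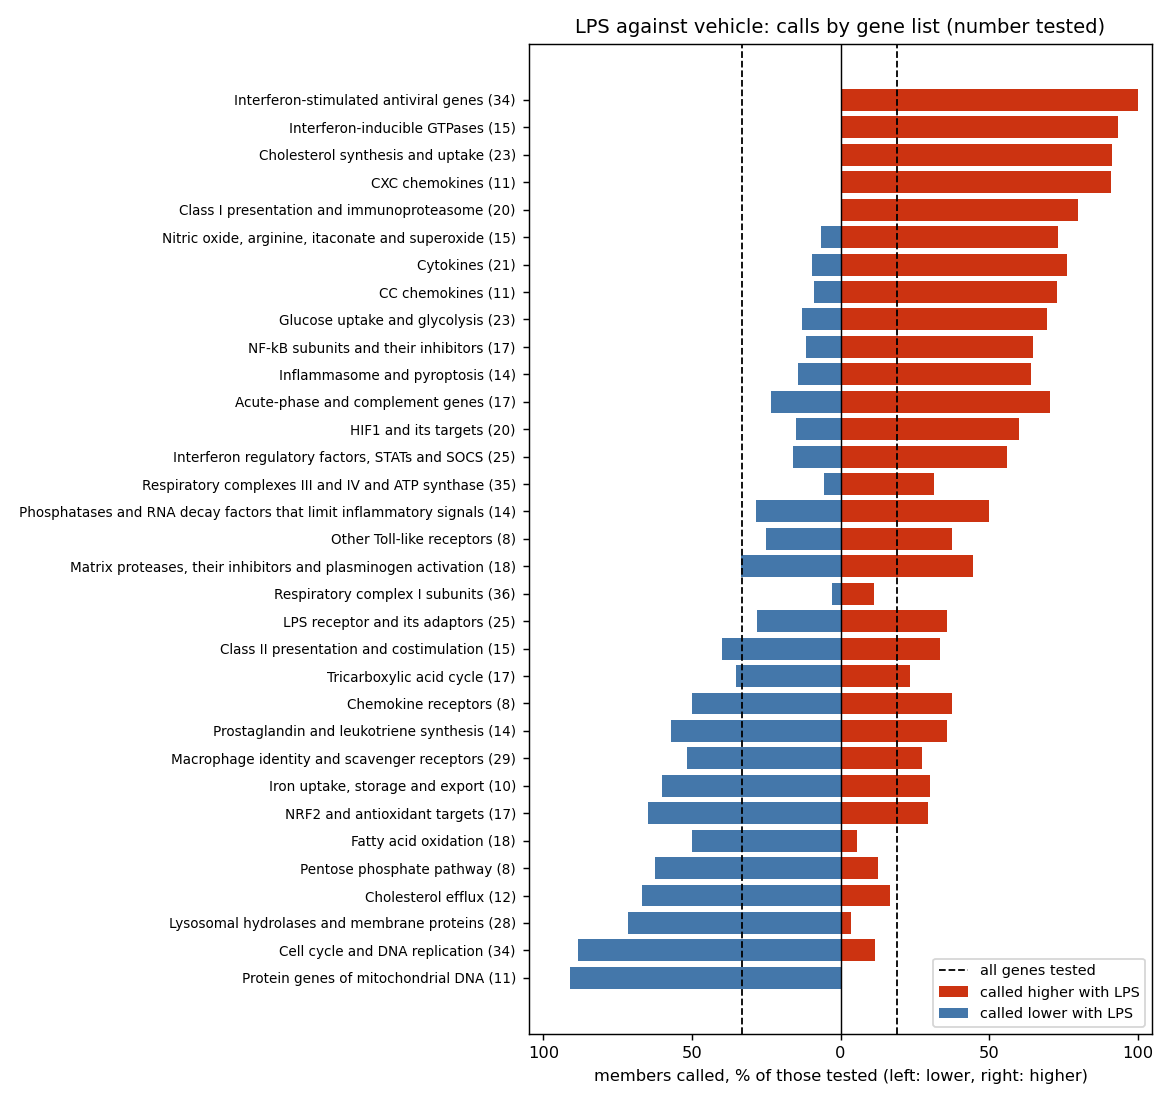
Share of the tested members of each of 33 gene lists (number tested in parentheses) called higher (right, in %) or lower (left, in %) with LPS. Dashed lines mark the shares over all genes tested, 19.0% and 33.0%. All 34 antiviral genes lie to the right, and 30 of 34 cell cycle genes to the left.

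For genes that head a group, the RefSeq sequence of the start region (build GRCm38.p6, 250 bases before to 50 after the start, 5′ to 3′ on the strand of the gene) is shown beside their values, to let the letters of known binding motifs be seen. Capitals mark matches, on either strand, to 4 motifs. The interferon-stimulated response element (ISRE) was searched as GAAA, any 2 bases and GAAA again, the NF-kB site as GGG, any 2 bases and TTTCC, the AP-1 site as TGA, any base and TCA, and the TATA box as TATAAA. Matches may overlap. Positions are counted back from the start, the base just before it being −1, and a match is a description of letters, not a bound site.

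Among 25 genes of the LPS receptor and its adaptors, 9 were higher and 7 lower. The median was 0.12, and −0.16 without the libraries numbered 2. Tlr4 itself had 38.2, 31.5 and 36.5 FPKM in vehicle and 46.98 and 25.2 FPKM with LPS. These ranges overlapped, and the gene was not called (log2 fold change −0.03, SE 0.39, adjusted p = 0.95). Cd14, the co-receptor, rose from 195, 252 and 202 to 1490.2 and 1775 FPKM (2.91, SE 0.32, adjusted p = 1.8e-05), and Ly96, which encodes MD-2, fell by 0.72 on the log2 scale. The adaptors Myd88 (0.67) and Ticam1, encoding TRIF (0.54), rose by less. Irak3, an inhibitor of the MyD88 pathway, rose most, by 3.02, and Cd180 and Ly86, whose products form a receptor complex that restrains TLR4, changed by −2.03 and −1.72.

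Negative regulators led the 17 genes of NF-kB subunits and their inhibitors, of which 11 were higher and 2 lower, or 1 lower after centring and without the libraries numbered 2 (median 1.29). Tnfaip3, the ubiquitin-editing enzyme A20, went from 13.8, 8.23 and 14.1 FPKM in vehicle to 165 and 166 FPKM with LPS (3.71, SE 0.22, adjusted p = 1.5e-07). Nfkbia, encoding the inhibitor IkBa, went from 43.6, 45.2 and 49.3 to 541 and 639.9 FPKM (3.65, SE 0.13, adjusted p = 5.3e-09). In both genes the LPS libraries lay far above each vehicle library. The subunits Nfkb2 (2.31), Nfkb1 (1.51) and Rel (0.86) rose, Relb was not called (0.23), and Rela, which encodes the p65 subunit, fell by 0.57 on the log2 scale.

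Other Toll-like receptors went both ways. Of 8 tested among 11 listed, the surface receptors for bacterial lipopeptides Tlr1 (3.05), Tlr2 (2.04) and Tlr6 (1.28) were higher, and the endosomal receptors for nucleic acids Tlr9 and Tlr13 were lower. Tlr13 fell from 218, 172 and 202 FPKM to 14.6 and 8.86 FPKM (−4.00, SE 0.26, adjusted p = 3.3e-07). The endosomal receptors Tlr3 (0.35), Tlr7 (−0.23) and Tlr8 (−1.03) were not called. Of 14 phosphatases and RNA decay factors that limit inflammatory signals, 7 were higher and 4 lower. Dusp2 (4.48) and Dusp16 (3.90), which dephosphorylate MAP kinases, and Zc3h12a (2.44), which encodes the ribonuclease Regnase-1, rose, whereas the mRNA decay factors Zfp36l1 (−3.26) and Zfp36l2 (−2.79) fell.

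Cytokine genes held the largest rises among the genes chosen for large changes. Of 21 tested among 26 with a value, 16 were higher and 2 lower, with a median of 3.04. Il1b (ENSMUSG00000027398, chromosome 2 from 129364570 to 129371139) had 3.77, 5.67 and 5.45 FPKM in vehicle and 13932 and 16653 FPKM with LPS. It went from a weakly to a very highly expressed gene in both LPS libraries, with a log2 fold change of 11.33, SE 0.67, adjusted p = 1.4e-07. Il1a (ENSMUSG00000027399, chromosome 2 from 129299610 to 129309972), its neighbour and the other interleukin-1, had 0.303, 0.452 and 0.685 FPKM and then 1809 and 1729 FPKM (10.23, SE 0.45, adjusted p = 1.8e-08). The start region of Il1b (chr2:129371090-129371389, minus strand) holds a TATA box from position −31.
Il1b: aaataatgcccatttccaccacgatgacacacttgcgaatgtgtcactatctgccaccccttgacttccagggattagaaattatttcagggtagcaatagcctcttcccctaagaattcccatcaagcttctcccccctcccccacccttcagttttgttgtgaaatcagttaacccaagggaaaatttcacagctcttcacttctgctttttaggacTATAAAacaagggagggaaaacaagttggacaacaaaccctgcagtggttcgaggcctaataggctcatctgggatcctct

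The shared p40 subunit of interleukins 12 and 23, Il12b (ENSMUSG00000004296, chromosome 11 from 44400063 to 44414033), had 0, 0.156 and 0.0263 FPKM in vehicle and 484 and 1037 FPKM with LPS (9.39, SE 0.39, adjusted p = 1.3e-08). Il12a, the p35 subunit, had 0, 0.0542 and 0.0456 FPKM and then 354 and 287 FPKM (8.27, SE 0.39, adjusted p = 2.7e-08). The LPS libraries differed more for Il12b than for Il12a, but both lay far above vehicle. Il6 (ENSMUSG00000025746, chromosome 5 from 30013114 to 30019981), the inducer of the acute-phase response, went from 0.0426, 0.0933 and 0.157 to 489 and 524 FPKM (8.85, SE 0.37, adjusted p = 1.3e-08). Tnf, an early cytokine, had 11.2, 7.75 and 12.5 FPKM in vehicle and 331 and 455 FPKM with LPS (5.11, SE 0.25, adjusted p = 3.8e-08). Its rise of 5.11 was less than that of the 5 genes above, and its vehicle level was higher. Il10, the anti-inflammatory cytokine, had 2.53, 6.81 and 3.898 FPKM and then 2.26 and 1.51 FPKM. The LPS libraries were the lower ones, but the gene was not called (−0.84, SE 0.37, adjusted p = 0.074). It was called lower under 3 of 16 alternatives, among them the replicate block (adjusted p = 0.037). Il16 (−2.24) and Tgfb1 (−0.87) were the 2 that fell, and were named after their values were seen. Ifnb1, interferon beta, did not reach the filter: it was listed at 0 in each vehicle library and at 1.07 and 0.504 FPKM in the LPS libraries at this time point.

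Chemokine genes rose over both families. Of 11 CC chemokines tested 8 were higher and 1 lower (median 5.49), and of 11 CXC chemokines 10 were higher and none lower (median 4.29), or 9 higher and 1 lower without the libraries numbered 2 (median 5.72). Ccl22 (ENSMUSG00000031779, chromosome 8 from 94745590 to 94751699), a ligand of CCR4 on T cells, had 0.0414, 0.317 and 0.305 FPKM in vehicle and 1132 and 1010.3 FPKM with LPS (9.78, SE 0.41, adjusted p = 1.3e-08). Ccl5, an attractant of T cells and monocytes, had 26.9, 21.4 and 20.9 FPKM and then 4094 and 11277 FPKM (8.15, SE 0.66, adjusted p = 1.7e-06). The LPS libraries differed from each other by more than 2-fold for Ccl5, and both lay far above the vehicle libraries. Ccl17 (7.86), Ccl3 (6.09) and Ccl2, the monocyte attractant (5.96), rose too. Ccl6 was the member that fell, from 173, 91.3 and 216 to 10.8 and 36.1 FPKM (−2.86, SE 0.62, adjusted p = 0.0024).

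Among the CXC family, the neutrophil attractants Cxcl3, Cxcl2 and Cxcl1 and the interferon-inducible Cxcl10 and Cxcl11 rose most. Cxcl3 (ENSMUSG00000029379, chromosome 5 from 90786103 to 90789600) had 0.120, 0.237 and 0.288 FPKM in vehicle and 1117 and 616 FPKM with LPS (9.42, SE 0.35, adjusted p = 6.0e-09). Cxcl10 (ENSMUSG00000034855, chromosome 5 from 92346638 to 92348889) had 1.26, 1.04 and 1.596 FPKM and then 813 and 1302 FPKM (8.81, SE 0.35, adjusted p = 9.1e-09). Both genes were near 1 FPKM or below in vehicle, and no LPS library came near that. Cxcl2 rose by 8.10, Cxcl11 by 7.06 and Cxcl1 by 6.80, whereas Cxcl14 was not called (−0.53). For Cxcl3 the start region (chr5:90785851-90786150, plus strand) holds a strict NF-kB match from position −73 and a TATA box from −30. Strict means A as the first of the 2 free bases.
Cxcl3: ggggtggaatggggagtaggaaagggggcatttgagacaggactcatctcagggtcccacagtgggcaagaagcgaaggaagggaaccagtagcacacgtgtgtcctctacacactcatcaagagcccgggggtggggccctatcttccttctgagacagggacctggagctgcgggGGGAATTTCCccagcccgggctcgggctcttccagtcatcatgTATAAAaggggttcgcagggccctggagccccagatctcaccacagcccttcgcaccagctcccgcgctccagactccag

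The chemokine receptors were the counterpart with the largest fall. Cxcr4 (ENSMUSG00000045382, chromosome 1 from 128588199 to 128592293), the CXCL12 receptor that retains cells in bone marrow, had 263, 248 and 224 FPKM in vehicle and 0.486 and 0.930 FPKM with LPS (−7.18, SE 0.19, adjusted p = 1.2e-09). Among the genes chosen for large changes it fell furthest, and the groups were far apart. Ccr7, the receptor that guides cells to lymph nodes, went from 0.0275, 0.0602 and 0.0253 FPKM to 37.5 and 109.9 FPKM (5.98, SE 0.35, adjusted p = 1.4e-07), and LPS replicate 3 had 2.93 times the level of replicate 2. Of the 8 receptors tested 3 were higher and 4 lower. Ccrl2 (3.43) and Ccr1 (0.79) rose, Cx3cr1 (−1.04), Cxcr3 (−1.51) and Ccr2 (−1.74) fell.

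Interferon-stimulated antiviral genes formed the list in which each of the 34 members was called higher, with a median of 3.56. Isg15 (ENSMUSG00000035692, chromosome 4 from 156199424 to 156200818), a ubiquitin-like protein, had 11.01, 12.3 and 19.5 FPKM in vehicle and 1578 and 2060.2 FPKM with LPS (6.92, SE 0.33, adjusted p = 2.8e-08). Oasl1, a member of the oligoadenylate synthetase family, had 3.25, 7.67 and 6.12 FPKM and then 592 and 1015 FPKM (6.92, SE 0.31, adjusted p = 2.2e-08). In both genes each LPS library lay far above each vehicle library. Isg20, an exonuclease, rose by 6.76, Ifit1, which binds viral RNA, by 5.73, and Rsad2, the enzyme viperin, by 4.95. The smallest rise of the list was that of Oas2, by 1.67, named after its value was seen. Members of the Ifit and Oas families resemble each other in sequence, so that reads may be divided among them. In the start region of Isg15 (chr4:156200769-156201068, minus strand) lie 3 overlapping ISRE matches, from positions −78, −72 and −66.
Isg15: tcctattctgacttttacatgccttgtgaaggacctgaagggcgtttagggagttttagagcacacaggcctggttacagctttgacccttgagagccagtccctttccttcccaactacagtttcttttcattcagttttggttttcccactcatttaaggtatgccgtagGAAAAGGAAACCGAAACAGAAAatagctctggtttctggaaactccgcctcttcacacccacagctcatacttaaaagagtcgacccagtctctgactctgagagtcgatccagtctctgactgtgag

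Interferon-inducible GTPases, which attack the vacuoles of intracellular microbes, rose in 14 of 15 members tested among 19 listed (median 4.10). Gbp5, a promoter of inflammasome assembly, had 1.51, 1.83 and 2.92 FPKM in vehicle and 231 and 253 FPKM with LPS (6.32, SE 0.39, adjusted p = 2.0e-07). Gbp3 had 7.94, 7.17 and 9.41 FPKM and then 566 and 592 FPKM (5.99, SE 0.32, adjusted p = 7.2e-08). Their LPS libraries were close to each other and far above vehicle. Gbp8 stood apart, with 1.47, 1.15 and 1.29 FPKM in vehicle and 1.01 and 1.797 FPKM with LPS, and was not called (0.05). Around the start of Gbp5 (chr3:142496684-142496983, plus strand) lie an ISRE match on the other strand from −165 and an NF-kB match on the other strand from −77.
Gbp5: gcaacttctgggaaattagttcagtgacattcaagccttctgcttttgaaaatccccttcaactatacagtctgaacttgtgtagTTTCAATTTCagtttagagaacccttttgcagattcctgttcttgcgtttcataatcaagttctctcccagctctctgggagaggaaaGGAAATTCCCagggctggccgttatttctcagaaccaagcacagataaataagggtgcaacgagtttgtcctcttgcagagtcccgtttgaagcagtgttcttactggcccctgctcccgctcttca

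Genes of interferon signalling, namely interferon regulatory factors, STATs, their kinases and SOCS inhibitors, gave 14 higher and 4 lower of 25 tested (2 lower without the libraries numbered 2). Socs3, an inhibitor of interleukin-6 signalling, had 4.47, 3.04 and 7.54 FPKM in vehicle and 858 and 1157 FPKM with LPS (7.44, SE 0.28, adjusted p = 6.0e-09). Socs1, an inhibitor of interferon signalling, had 0.178, 0.195 and 0.205 FPKM and then 136 and 147 FPKM (6.90, SE 0.28, adjusted p = 1.1e-08). Usp18, which removes ISG15 and damps the interferon receptor, rose by 5.09, Irf7, the amplifier of type I interferon, by 4.50, and Cish by 4.46. The 4 that fell were Ifngr1 (−2.53), the interferon gamma receptor chain, and Irf2 (−1.03), Irf8 (−0.74) and Stat6 (−0.56), named after their values were seen.

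Genes of antigen presentation were counted by class. Of 20 class I and immunoproteasome genes 16 were higher and none lower (median 1.67), and 17 were higher and none lower without the libraries numbered 2. The peptide transporter genes Tap1 (2.28) and Tap2 (2.02), the immunoproteasome subunit Psmb8 (2.29), its activator Psme2 (2.90) and the class I transactivator Nlrc5 (2.01) rose. H2-D1 (3795, 1319 and 3352 and then 1128 and 3891 FPKM) and H2-K1 (1309, 959 and 1287 and then 1583 and 3948 FPKM) were not called, and in both genes the libraries numbered 2 had the lowest value of their treatment.

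Of 15 genes of class II presentation and costimulation 5 were higher and 6 lower, and the median was 0.34, or −0.11 with 6 higher and 4 lower without the libraries numbered 2. The costimulatory receptor Cd40 rose from 12.2, 14.04 and 12.5 to 927 and 1356 FPKM (6.34, SE 0.26, adjusted p = 1.2e-08). Cd274, encoding PD-L1, rose by 3.87 and Icosl by 3.67. Ciita, the master regulator of class II genes, went from 6.47, 4.01 and 8.05 to 0.215 and 0.192 FPKM (−2.53, SE 0.22, adjusted p = 2.6e-06), Cd74, the invariant chain, fell by 1.84 on the log2 scale, and H2-Aa had 425, 151 and 327 FPKM in vehicle and 17.4 and 39.8 FPKM with LPS. H2-Ab1 overlapped between treatments (451, 57.2 and 381 and then 192 and 384 FPKM) and was not called.

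Genes of nitric oxide, arginine, itaconate and superoxide metabolism gave 11 higher and 1 lower of 15 (median 2.12). Acod1 (ENSMUSG00000022126, chromosome 14 from 103046977 to 103056573), the enzyme that makes itaconate from cis-aconitate, had 1.43, 1.497 and 2.71 FPKM in vehicle and 1250.3 and 1807 FPKM with LPS (9.06, SE 0.36, adjusted p = 8.7e-09). Nos2, inducible nitric oxide synthase, had 0.0130, 0.0142 and 0.0597 FPKM and then 35.7 and 134 FPKM (6.09, SE 0.44, adjusted p = 6.1e-07). Nos2 was barely detected in vehicle, and LPS replicate 3 had the higher level, 3.75 times that of replicate 2. The arginine transporter Slc7a2 rose by 6.53, Ass1, which recycles citrulline to arginine, by 3.90, and mitochondrial superoxide dismutase Sod2 by 4.68. Of the NADPH oxidase subunits, Cybb (1.25) and Ncf1 (2.09) rose, and Cyba (−0.15) and Ncf4 (−0.05) were not called. The start region of Acod1 (chr14:103046762-103047061, plus strand) holds a TATA box from −28.
Acod1: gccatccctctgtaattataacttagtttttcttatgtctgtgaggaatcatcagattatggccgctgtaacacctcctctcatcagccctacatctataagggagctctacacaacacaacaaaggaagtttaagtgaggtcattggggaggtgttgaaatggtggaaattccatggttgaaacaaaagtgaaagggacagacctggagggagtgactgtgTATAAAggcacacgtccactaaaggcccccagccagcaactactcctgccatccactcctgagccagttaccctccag

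Eicosanoid genes went both ways. Ptgs2 (ENSMUSG00000032487, chromosome 1 from 150100031 to 150108227), cyclooxygenase 2, had 0.339, 0.371 and 0.624 FPKM in vehicle and 1185 and 1200.3 FPKM with LPS (9.70, SE 0.22, adjusted p = 4.3e-10), and Ptges, the inducible prostaglandin E synthase, had 3.58, 2.27 and 3.71 FPKM and then 629.6 and 500.3 FPKM (7.09, SE 0.30, adjusted p = 1.3e-08). Pla2g4a, the phospholipase that frees arachidonic acid, rose by 2.68. By contrast the leukotriene genes Alox5 (−2.73), Alox5ap (−3.34) and Lta4h (−1.45), the constitutive cyclooxygenase Ptgs1 (−2.24), prostaglandin D synthase Hpgds (−2.61) and thromboxane synthase Tbxas1 (−1.08) fell. Hpgd, which degrades prostaglandins, had 6.36, 7.55 and 4.98 FPKM in vehicle and was listed at 0 in both LPS libraries. Over 14 tested members 5 were higher and 8 lower, with a median of −0.96.

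Inflammasome genes gave 9 higher and 2 lower of 14 (median 0.69). The sensors Nlrp3 (2.41), Mefv (2.45) and Nlrc4 (1.90) and the caspases Casp4 (1.40) and Casp1 (0.99) rose, while the adaptor Pycard fell from 20.9, 24.5 and 26.2 to 7.05 and 8.82 FPKM (−1.48, SE 0.17, adjusted p = 2.7e-05). Of 17 acute-phase and complement genes tested 12 were higher and 4 lower, or 2 lower without the libraries numbered 2 (median 2.12). Saa3 (ENSMUSG00000040026, chromosome 7 from 46711998 to 46715700) had 58.8, 108 and 239.8 FPKM in vehicle and 53811 and 57212 FPKM with LPS (8.90, SE 0.63, adjusted p = 5.7e-07). It was the most abundant transcript of both LPS libraries. Lcn2, a siderophore-binding protein, rose from 2.29, 5.21 and 12.4 to 1603 and 1076 FPKM (7.66, SE 0.51, adjusted p = 3.6e-07), ceruloplasmin Cp by 4.58 and complement factor B, Cfb, by 3.60. Saa1 and Saa2, near-identical relatives, were listed at 0 in each vehicle library, and with LPS Saa1 had 14.9271 and 16.9996 FPKM and Saa2 2.39 and 4.54 FPKM. The 3 chains of C1q fell, C1qa by 0.95, C1qb by 1.56 and C1qc by 1.77 on the log2 scale. The start region of Saa3 (chr7:46715627-46715926, minus strand) holds an ISRE match from −125.
Saa3: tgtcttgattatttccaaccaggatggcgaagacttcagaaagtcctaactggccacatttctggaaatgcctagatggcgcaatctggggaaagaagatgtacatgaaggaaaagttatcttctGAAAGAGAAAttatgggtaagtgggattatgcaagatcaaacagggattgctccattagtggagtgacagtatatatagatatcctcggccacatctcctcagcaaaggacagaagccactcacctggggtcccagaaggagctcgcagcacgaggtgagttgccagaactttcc

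Receptors and factors that mark resting macrophages went both ways, with several of the largest falls among them. Of 29 tested identity and scavenger receptor genes 8 were higher (5 without the libraries numbered 2) and 15 lower (median −0.89). Mrc1 (ENSMUSG00000026712, chromosome 2 from 14229392 to 14332057), the mannose receptor, had 175, 184 and 215 FPKM in vehicle and 0.960 and 0.586 FPKM with LPS (−6.76, SE 0.20, adjusted p = 2.1e-09). Trem2 (ENSMUSG00000023992, chromosome 17 from 48346401 to 48354147), a lipid-sensing receptor, had 856, 869 and 729.9 FPKM and then 10.2 and 8.85 FPKM (−6.28, SE 0.20, adjusted p = 3.3e-09). Gas6, the ligand of the receptors Mertk and Axl, fell to 2.58 and 2.36 FPKM from 216, 298 and 251 FPKM (−6.19, SE 0.26, adjusted p = 1.4e-08). In these 3 genes the LPS libraries were close to each other and far below each vehicle library. Clec7a, encoding dectin-1, changed by −4.06. Marco, a scavenger receptor, went the other way, from 21.7, 29.4 and 16.9 to 1266 and 1690.1 FPKM (5.98, SE 0.31, adjusted p = 6.1e-08). Fcgr1 (2.01) rose, Mertk (−0.56) fell and Itgam (0.27) was not called. For contrast the start region of Mrc1 (chr2:14229164-14229463, plus strand) is shown, which holds none of the searched letters.
Mrc1: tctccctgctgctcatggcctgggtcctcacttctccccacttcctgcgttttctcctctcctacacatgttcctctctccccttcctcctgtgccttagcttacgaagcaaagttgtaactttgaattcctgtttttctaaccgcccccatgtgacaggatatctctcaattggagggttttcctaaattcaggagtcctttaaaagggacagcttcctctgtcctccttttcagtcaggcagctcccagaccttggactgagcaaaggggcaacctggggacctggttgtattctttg

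Further falls of this size were those of the iron exporter Slc40a1 (−6.25), the sodium-proton exchanger Slc9a9 (−6.21), the epoxide hydrolase Ephx1 (−6.19), the sterol hydroxylase Cyp27a1 (−6.09), the lysosomal transporter Slc46a3 (−5.98), the membrane protein Emp1 (−5.79), the immune receptor Cd300lb (−5.62) and the G protein regulator Rgs2 (−5.55). Among the large rises Upp1, uridine phosphorylase, has a place in none of the lists. It had 0.698, 0.611 and 0.514 FPKM in vehicle and 641 and 488 FPKM with LPS (8.45, SE 0.16, adjusted p = 1.9e-10).

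Glucose uptake and glycolysis genes gave 16 higher and 3 lower of 23, with a median of 1.07. The lactate exporter Slc16a3 rose by 2.45, the glucose transporter family member Slc2a6 by 2.77, Pfkfb3, which makes the activator of phosphofructokinase, by 2.37, and Pfkl by 1.94. Hk2, hexokinase 2, had 17.4, 12.8 and 16.1 FPKM in vehicle and 72.04 and 73.8 FPKM with LPS (2.18, SE 0.24, adjusted p = 1.7e-05). Slc2a1, the transporter GLUT1, had 36.9, 26.5 and 44.995 FPKM and then 119.5 and 151 FPKM (1.90, SE 0.20, adjusted p = 1.3e-05). The LPS libraries of both genes lay above each vehicle library. Ldha, lactate dehydrogenase, rose by 1.16 and Gapdh by 0.91. The 3 that fell, Gpi1 (−0.53), Pfkfb4 (−0.97) and Pfkm (−1.03), were named after their values were seen.

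Hif1a, the oxygen-regulated factor known to drive glycolytic genes, rose from 23.8, 20.2 and 23.2 to 136 and 122 FPKM (2.48, SE 0.19, adjusted p = 8.6e-07). Its list gave 12 higher and 3 lower of 20 (median 1.07), among them Adm (3.74), the prolyl hydroxylase subunit P4ha2 (2.25) and Vegfa (1.76), with Ndrg1 changing by −3.71 and Pdk1 not called (−0.18). The pentose phosphate pathway gave 1 higher and 5 lower of 8, or none higher and 3 lower without the libraries numbered 2: the oxidative enzymes G6pdx (−0.98) and Pgd (−0.99) and the transaldolase Taldo1 (−1.91) fell, and Rpe rose (1.05).

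The tricarboxylic acid (TCA) cycle showed small changes in both directions, 4 higher and 6 lower of 17 (7 higher after centring and 2 higher without the libraries numbered 2), with a median of −0.17 that is close to the −0.18 of all genes. Idh2, mitochondrial NADP-dependent isocitrate dehydrogenase, fell from 77.1, 102 and 82.3 to 31.5 and 36.8 FPKM (−1.32, SE 0.16, adjusted p = 4.1e-05). Suclg2, the GTP-forming subunit of succinyl-CoA ligase, fell from 12.1, 13.4 and 11.6 to 4.19 and 3.66 FPKM (−1.44, SE 0.15, adjusted p = 1.2e-05). Each LPS library of these genes lay below all vehicle libraries. Fumarase Fh1 (−1.17), Idh3g (−0.90), Idh3b (−0.60) and the succinate dehydrogenase subunit Sdha (−0.54) fell as well. Sdhb (−0.29), Sdhc (−0.17) and Sdhd (−0.31) were not called, and citrate synthase Cs (0.51), Idh3a (0.59), Mdh2 (0.56) and Ogdh (0.53) rose.

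Nuclear genes of the respiratory chain gave few calls. Of 36 complex I subunits 4 were higher and 1 lower (median 0.06), namely Ndufs4 (1.21), Ndufb6 (1.20), Ndufc2 (0.86), Ndufb4 (0.54) and Ndufb11 (−0.61). The calls of Ndufb4 and Ndufb11 were lost under 9 and 8 of 16 alternatives, and after centring 5 members were higher and none lower. Of 35 genes of complexes III and IV and ATP synthase 11 were higher and 2 lower (median 0.21), or 10 higher and 1 lower after centring and 7 higher and none lower without the libraries numbered 2, with cytochrome c, Cycs, rising most (2.09). The protein genes of mitochondrial DNA differed from these. Of 11 tested among 13 listed none was higher and 10 were lower, with a median of −0.998. After centring 8 were lower, and without the libraries numbered 2 there were 6. The 2 ribosomal RNA genes of mitochondrial DNA that were tested, which are outside this list, were called higher. The cytochrome b gene mt-Cytb went from 1253, 1406 and 1484 to 474 and 505 FPKM (−1.49, SE 0.16, adjusted p = 1.3e-05), and the subunit gene mt-Nd4 from 507, 662 and 559.6 to 192 and 271 FPKM (−1.32, SE 0.22, adjusted p = 0.00038). Nuclear copies of mitochondrial sequence may take part of their reads. Fatty acid oxidation gave 1 higher and 9 lower of 18 (6 lower without the libraries numbered 2), with Acaa2 (−2.18), Hadh (−2.01) and Cpt1a (−1.34), the gate of fatty acid entry into mitochondria, falling most.

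Most cholesterol genes of synthesis and uptake rose, while those of the efflux list went both ways with more falls. Of 23 genes of synthesis and uptake 21 were higher and none lower, with a median of 2.11. Idi1, isopentenyl diphosphate isomerase, had 7.15, 7.51 and 13.4 FPKM in vehicle and 104 and 134 FPKM with LPS (3.57, SE 0.27, adjusted p = 8.5e-07). Both LPS libraries lay above each vehicle library. Mvd (3.39), Sc5d (3.24) and Fdft1, squalene synthase (3.06), rose by over 3, and the 2 that were not called were Dhcr7 (0.01) and Ebp (−0.18), named after their values were seen. Of 12 genes of cholesterol efflux 2 were higher and 8 lower, or 6 lower after centring (median −0.82). Apoe, which carries cholesterol out of macrophages, fell from 5673, 3762 and 4332 to 495 and 540.1 FPKM (−3.13, SE 0.34, adjusted p = 1.5e-05), and Lipa, the lysosomal acid lipase, from 756, 576 and 723 to 38.6 and 34.7 FPKM (−4.18, SE 0.18, adjusted p = 1.4e-08). The transporters Abca1 (−0.87, not called) and Abcg1 (−0.77) had smaller values, while Ch25h, which makes 25-hydroxycholesterol, rose from 1.21, 2.91 and 0.408 to 70.4 and 35.3 FPKM (4.47, SE 0.37, adjusted p = 2.0e-06).

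Lysosomal hydrolases and membrane proteins gave 1 higher and 20 lower of 28, with a median of −1.20. Psap, the precursor of the saposins, went from 4174, 4164 and 4449 to 470.4 and 519 FPKM (−3.11, SE 0.18, adjusted p = 1.5e-07), and cathepsin B, Ctsb, from 2990.1, 3363 and 3146 to 619 and 549 FPKM (−2.44, SE 0.17, adjusted p = 4.3e-07). The vehicle libraries were close to each other and well above the LPS libraries in both. Man2b1 (−2.90), Hexa (−2.61) and Ctsk (−2.31) fell too.

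**Figure D4:**
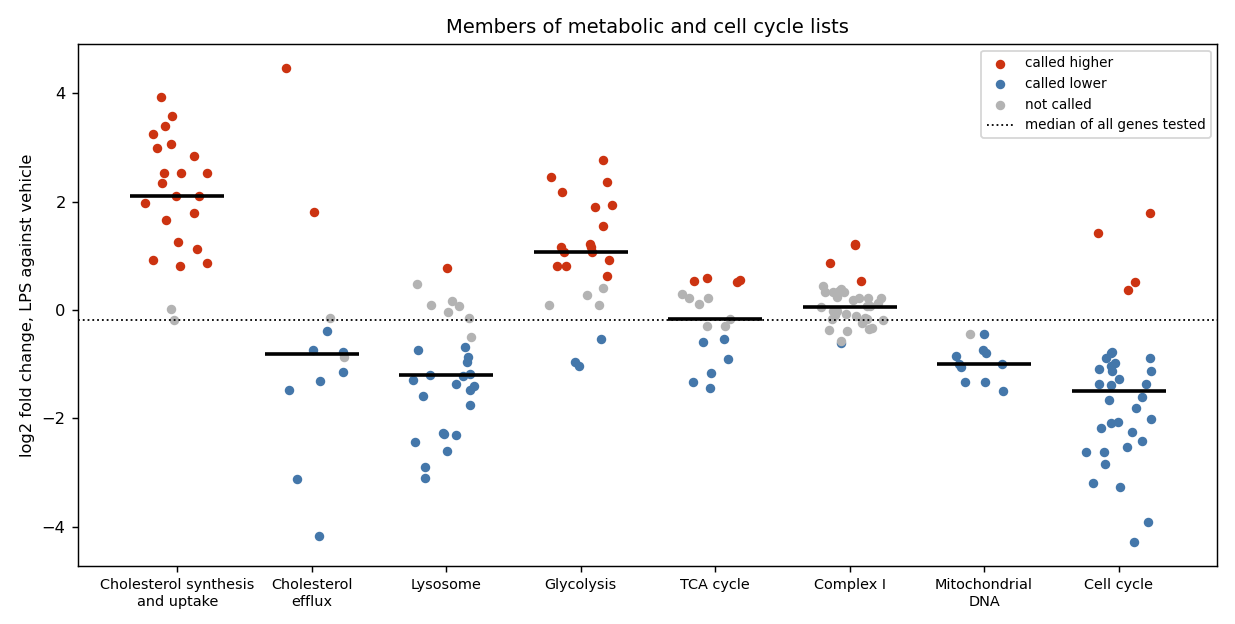
Log2 fold change with LPS against vehicle (y axis) of each tested member of 8 lists (points, spread sideways for sight), with the list median as a black bar and the median of all genes, −0.18, as a dotted line. Members of cholesterol synthesis lie around 2.11, lysosomal genes around −1.20 and complex I around 0.06.

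Redox and iron genes went both ways. Of 17 NRF2 and antioxidant targets 5 were higher and 11 lower (median −1.11). The cystine transporter Slc7a11 rose (3.35), catalase Cat (−2.39), peroxiredoxin Prdx1 (−2.06), Nqo1 (−1.80) and Nfe2l2, the gene of NRF2 itself (−1.39), fell, and Hmox1, heme oxygenase, fell from 1000.2, 729.6 and 886 to 322 and 569.7 FPKM (−1.01, SE 0.24, adjusted p = 0.0039). Of 10 iron genes tested 3 were higher and 6 lower, or 2 higher and 4 lower without the libraries numbered 2. Slc40a1, encoding ferroportin, the cellular iron exporter, had 172, 95.9 and 109.9 FPKM in vehicle and 0.342 and 0.945 FPKM with LPS (−6.25, SE 0.30, adjusted p = 3.0e-08). The transferrin receptor Tfrc fell (−1.84), the ferritin heavy chain Fth1 rose (1.16) and the light chain Ftl1 fell (−1.64), so that the ferritin chains, which together form the iron storage shell, changed in opposite directions.

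Matrix proteases, their inhibitors and plasminogen activation gave 8 higher and 6 lower of 18 tested. Serpinb2, an inhibitor of plasminogen activation, rose from 1.59, 0.0469 and 0.948 to 509.9 and 70.2 FPKM (6.78, SE 0.67, adjusted p = 7.4e-06). The LPS libraries were far apart, with replicate 2 the higher. The activator Plau, urokinase, fell (−3.53). Mmp14 (4.41), Mmp13 (3.15) and Timp1 (3.13) rose, and Timp2 (−4.81) and Mmp12, macrophage elastase (−2.67), fell.

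Cell cycle and DNA replication genes gave 4 higher and 30 lower of 34 (21 lower without the libraries numbered 2), with a median of −1.50. Ccnd1, cyclin D1, which couples M-CSF signals to entry into the cycle, fell from 30.4, 46.3 and 43.7 to 1.01 and 1.16 FPKM (−4.28, SE 0.30, adjusted p = 5.4e-07). Cenpa, the centromeric histone, went from 21.8, 29.6 and 27.1 to 0.393 and 1.296 FPKM (−3.92, SE 0.30, adjusted p = 9.6e-07). Neither gene overlapped between the groups. Cdc20 (−3.28), Ccnb2 (−3.19) and Ccna2 (−2.84) fell too. The 4 that rose were named after their values were seen: Mki67, whose protein Ki-67 is the usual mark of cycling cells, had 3.86, 6.47 and 6.46 FPKM in vehicle and 25.8 and 17.5 FPKM with LPS (1.79, SE 0.26, adjusted p = 0.00016), and Ccne1 (1.42), Tyms (0.52) and Mcm3 (0.37) rose by less.

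Motif letters were counted in the start regions of the 8427 protein-coding genes tested that had a RefSeq sequence, out of 10480. ISRE letters stood in 3.36% of all of them, in 6.63% of genes called higher, in 2.57% of genes called lower and in 16.8% of those that rose by at least 4 on the log2 scale. They stood in 15 of 26 antiviral genes with a sequence and in 9 of 10 GTPase genes. NF-kB letters were found in 1.55% of all, 2.25% of higher, 1.28% of lower and 5.61% of the strongest risers, and in the strict form in 3 of 8 CXC chemokines, Cxcl3 above among them, against 0.403% of all genes. AP-1 letters stood in 4.95% of all and 19.6% of the strongest risers, and TATA letters in 6.59% and 21.5%. TATA letters were counted anywhere in the start region and on either strand. Their shares are thus not those of TATA boxes placed as in Il1b, Cxcl3 and Acod1 above. At a common bound of 2 on the log2 scale, genes that rose and genes that fell held ISRE letters in 14.2% and 2.74%, NF-kB letters in 3.67% and 1.496%, AP-1 letters in 14.2% and 8.48%, and TATA letters in 14.4% and 9.73%. These shares are descriptions with no test, and gene sets that share family members share sequence.

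Called genes that changed by at least 2 on the log2 scale also lay side by side on chromosomes. Runs of at least 4 such genes in one direction with gaps of at most 200 kb between neighbours were collected, a rule chosen after the values were seen, and gave 17 runs of rises and 7 of falls. Coordinates are those of GRCm38. On chromosome 5 from 90759360 to 90905938, all 6 genes tested, Cxcl5, Ppbp, Pf4, Cxcl3, Cxcl1 and Cxcl2, rose. On chromosome 3 from 142493978 to 142638008, all 5 tested, Gbp5, Gbp7, Gbp3, Gbp2b and Gbp2, rose. On chromosome 19 from 34290666 to 34650009, 7 of 8 rose, the death receptor gene Fas, Ch25h and 5 genes of the Ifit family. On chromosome 11 from 83511736 to 83752642, 7 of 9 rose, among them Ccl5, Ccl3 and Ccl4. Of the runs of falls, 2 held 8 genes each, on chromosome 6 from 124829547 to 125084029 (8 of 17 genes tested, Cd4 among them) and on chromosome 11 from 114851152 to 115048409 (8 of 9), the latter including Cd300a, Cd300lb and Cd300c2, of the CD300 family of paired immune receptors. Neighbours within such families are similar in sequence, and their reads may be divided among them.

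The response was also compared between wild type and the libraries labelled AMPKa1-/-, for a null allele of the AMPK catalytic subunit alpha1, the product of Prkaa1. Prkaa1 had 15.9, 11.8 and 15.3 FPKM in wild-type vehicle and 15.3 and 10.4 FPKM in wild-type LPS libraries, against 14.8, 16.5 and 15.4 FPKM with vehicle and 9.05, 11.2 and 10.5 FPKM with LPS in the libraries labelled AMPKa1-/-. Its level thus does not set the labelled libraries apart, and the part of the gene that is deleted is not given in the sources used here. In the fit of 8 groups LPS gave 2321 higher and 3997 lower genes in wild type, and 2364 higher and 4918 lower in the libraries labelled AMPKa1-/-, which have 1 LPS library more. The difference between the responses was called for 1 of 11360 genes (0.00880%) with limma, and 506 had an unadjusted p under 0.05. Those 506 are a smaller share than the 0.05 to be met on average if no gene differed.

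The gene was Dkk2, a secreted antagonist of Wnt signalling. It had 4.68, 3.28 and 4.08 FPKM in wild-type vehicle and was listed at 0 in both wild-type LPS libraries, and it had 1.16, 0.825 and 1.24 FPKM with vehicle and 0.0123, 0.0160 and 0.0407 FPKM with LPS in the libraries labelled AMPKa1-/-. Levels with LPS were near 0 under both labels, and the vehicle levels were apart. The response differed by 1.30 on the log2 scale (SE 0.20, adjusted p = 0.026). With LPS at the floor of the scale in each library, this difference restates that of the vehicle levels. The call was lost under 9 of 15 alternatives, and its adjusted p ran from 0.010 to 0.28, the latter with a pseudocount of 0.1. No other gene passed. A fit without the vehicle and LPS libraries low in H2-Q7 leaves 1 library in 3 of the 4 groups. Its calls rest on the spread of other groups and are not read here. Among the other genes with the smallest p in the fit of 8 groups, Klk1b22 had 10.9, 5.71 and 7.91 FPKM in wild-type vehicle. It had 0.880 and 0.442 FPKM with LPS, and was listed at 0 in all 6 labelled libraries. Chp2 (difference 1.01, adjusted p = 0.13) and Cytip (−1.79, adjusted p = 0.13) followed.

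LPS was also set against DAMPs in wild-type macrophages. The 2 comparisons with vehicle share their vehicle libraries, so their values are given side by side only. DAMPs against vehicle gave 63 higher (0.552%) and 33 lower (0.289%) of 11407 genes. LPS lay above DAMPs in 2266 genes (19.9%) and below in 3650 (32.0%). Il1b had 6.38, 2.04 and 10.01 FPKM with DAMPs and 13932 and 16653 FPKM with LPS (LPS against DAMPs 11.25, SE 0.68, adjusted p = 3.3e-09). Ptgs2 had 0.416, 0.160 and 0.292 FPKM with DAMPs and 1185 and 1200.3 FPKM with LPS (9.86, SE 0.20, adjusted p = 4.3e-14). In both genes the DAMPs and vehicle libraries overlapped, and the LPS libraries lay far above them. Il1a, Ccl22 and Cxcl3 were the other 3 of the 5 largest differences, and Cxcr4, Mrc1, Cyp27a1, Slc46a3 and Gas6 were the 5 largest in the other direction. Cxcr4 had 213, 209 and 142 FPKM with DAMPs against 0.486 and 0.930 FPKM with LPS (−6.78, SE 0.20, adjusted p = 1.8e-12).

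Antiviral genes were where DAMPs moved as well. Of the 34 genes 15 were called higher with DAMPs than with vehicle, with a median of 1.47 against the 3.56 of LPS, and 4 of 15 GTPases. None of the 21 cytokines was called, beside shares of 0.552% higher and 0.289% lower over all genes. Isg20 had 1.77, 4.67 and 2.36 FPKM in vehicle, 12.9, 8.65 and 60.5 FPKM with DAMPs and 332 and 496 FPKM with LPS (DAMPs against vehicle 2.43, SE 0.49, adjusted p = 0.035). Oasl1 had 18.6, 17.02 and 69.2 FPKM with DAMPs (2.19, SE 0.41, adjusted p = 0.026). DAMPs replicate 3 was the highest of its group for both genes, and its level stayed below that of either LPS library. LPS was above DAMPs for 30 of the 34 (median difference 1.965). The 4 that did not pass were Ifit3b, Oas2, Rtp4 and Samd9l, named after their values were seen. Rtp4 had 80.9, 51.3 and 226 FPKM with DAMPs and 182 and 165 FPKM with LPS. Gbp8 was the GTPase that was called lower with LPS than with DAMPs, at 4.45, 3.02 and 9.52 FPKM with DAMPs and 1.01 and 1.797 FPKM with LPS (−1.37, SE 0.29, adjusted p = 0.00097).

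Some genes of other lists were called with DAMPs too, and 4 of them are named here after their values were seen. Irf7 had 478, 368 and 1586 FPKM with DAMPs, between 66.7, 115 and 87.1 FPKM in vehicle and 1715 and 2334 FPKM with LPS, and was called higher than vehicle (2.89, SE 0.45, adjusted p = 0.012). Complement C3 had 115, 186 and 129 FPKM in vehicle, 519, 529 and 1008 FPKM with DAMPs and 898 and 751 FPKM with LPS, and LPS against DAMPs did not pass (0.33, SE 0.33, adjusted p = 0.43). Marco had 127, 155 and 206 FPKM with DAMPs, above vehicle and below LPS. Hmox1 had 365, 465 and 308 FPKM with DAMPs and 322 and 569.7 FPKM with LPS, both below vehicle, and the difference between the stimuli did not pass (0.20, SE 0.24, adjusted p = 0.52).

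**Figure D5:**
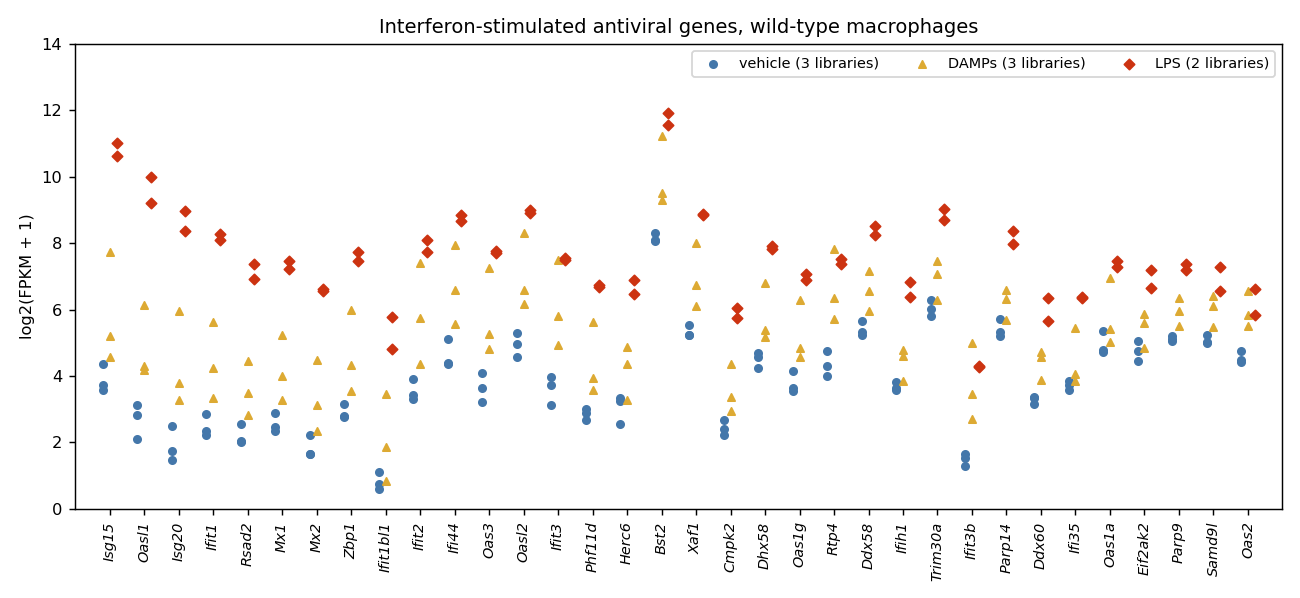
Levels as log2(FPKM + 1) of the 34 interferon-stimulated antiviral genes in wild-type vehicle (circles), DAMPs (triangles) and LPS (diamonds) libraries, ordered by the rise with LPS. Each symbol is 1 library, and for Isg20 the values run from 1.77 to 4.67 FPKM in vehicle, from 8.65 to 60.5 FPKM with DAMPs and from 332 to 496 FPKM with LPS.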

How the data were processed

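RNA of bone marrow-derived macrophages was extracted with TRIzol and sequenced by Novogene. The authors deposited FPKM values per gene and library. The submitters' processing notes name Bowtie2 2.2.3, TopHat2 2.0.12, HTSeq 0.6.1 and the build GRCm38. The strand setting and the handling of reads shared by similar genes are not stated, so that antisense and near-identical genes are uncertain. Gene symbols and positions were taken from GENCODE release M21, and start regions from RefSeq (GRCm38.p6).

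FPKM are not counts. With library totals read from the FPKM steps of weak genes, 58.0% to 61.2% of the genes below 10 fragments gave whole numbers (tolerance 0.001 fragments) in the 5 libraries, so that a count test was not run. On a gene of 1 kb, 1 fragment is worth 0.0420 to 0.0595 FPKM, below which no difference can be resolved.

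Genes with a mean of at least 1 FPKM over the 5 libraries entered a limma fit (version 3.58.1, R 4.3.3, trended empirical Bayes, 2-sided test) of log2(FPKM + 1), and p-values were adjusted over all genes by the Benjamini-Hochberg method at 0.05. Fold changes are on this scale, which understates those of weak genes. The spread came from 11 wild-type libraries in 4 groups (LPS, vehicle, and each with dexamethasone, Dex), so that it was shared by the 2 LPS libraries. The comparison with the libraries labelled AMPKa1-/- used 23 libraries in 8 groups, and that with DAMPs the 17 wild-type libraries in 6 groups. On simulated data for LPS against vehicle (11450 genes) the test called 24 of 25 genes raised by 2 on the log2 scale, 16 of 25 raised by 1 and 8 of 25 raised by 0.5. It called 22 of 25 lowered by 2, 15 of 25 lowered by 1, 3 of 25 lowered by 0.5 and 9 of 11250 unchanged genes. Far fewer genes were changed there than were called in the data, and all were drawn from genes above a set vehicle level. The adjusted threshold is looser where more genes change, so these rates need not hold for the data.

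The 33 gene lists, the cell type markers and the comparison itself were chosen with earlier results of these data known. Named genes were the 12 largest rises and falls among called protein-coding genes of at least 10 FPKM in the higher group whose groups do not overlap, up to 5 called genes per list by size, any member of lists of up to 20 tested genes, cell type markers, a list of fixed genes, the 5 smallest p for the difference between genotypes, and the 5 largest differences from DAMPs in each direction. Others are stated to be named after their values were seen, and some genes that the rule names are not reported here. The alternatives were a pseudocount of 0.1, other filters, centring, quantile normalization, other sets of libraries, the replicate number as a block, a model without moderation, and each library left out in turn. Tables used Python 3.11.15 with pandas 2.3.3 and numpy 2.4.6, and figures matplotlib 3.10.9.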

Additional observations from a re-analysis of the deposited data

Results flagged for a closer look

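The response of Dkk2 to LPS differed between wild type and the libraries labelled AMPKa1-/- in the interaction term, with 1.30 on the log2 scale (SE 0.20, adjusted p = 0.026 with limma over 11360 genes). Wild-type vehicle had 4.68, 3.28 and 4.08 FPKM and the labelled vehicle libraries 1.16, 0.825 and 1.24 FPKM, while each LPS library had at most 0.0407 FPKM. With LPS at the floor of the scale, the difference restates that of the vehicle levels. The call was lost under 9 of 15 alternatives, among them a pseudocount of 0.1 (adjusted p = 0.28) and the replicate block (adjusted p = 0.090). The gene was lower with LPS than with vehicle in 2 of 2 wild-type and 3 of 3 labelled LPS libraries.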

How the results depend on the processing

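For LPS against vehicle the 16 alternatives kept each count within 1.5 times of that reported: 4298 to 6866 genes were called in all against 5950, the lowest without both libraries numbered 2 (1520 higher and 2778 lower, chosen after seeing the data) and the highest with no filter. With 1 library left out at a time the calls were 4648 to 5464, the fewest without LPS replicate 2 (4648) or LPS replicate 3 (4741), where the spread of the remaining LPS library is taken from the other groups. The alternatives were followed gene by gene for 195 of the genes tested. Of the 191 of these that were called, 166 were called under all 16 alternatives and 8 under each that tested them. None of them changed direction. Other genes named above, such as Rela, Stat6 and Cs, are not covered by these counts. Calls were lost under 8 or 9 alternatives for Ndufb11, Ndufb4, Nr3c1 and Actb, and under 1 to 3 for Ccr2, H2-Eb1, Hp, Rpe, Shpk, Idh3b, Cox7a2l, Uqcrb, mt-Nd5, Myd88, Ticam1, Sdha and Adgre1. Il10 (3 alternatives) and Cytip (1) were called only under alternatives. The list medians changed sign under at least 1 alternative for the LPS receptor, other Toll-like receptors, chemokine receptors, class II presentation and complex I, each within −0.78 to 0.53.

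The replicate block gave 2241 higher and 3661 lower genes for LPS against vehicle, 2390 higher and 3768 lower for LPS against DAMPs, and 0 for the difference between genotypes. In wild type, LPS and vehicle share only 2 numbers, and the labelled groups share all of theirs. What the numbers mark is not given in these sources. H2-Q7 went with the number across treatments, with at most 0.181 FPKM in wild-type libraries numbered 2 and at least 2.01 FPKM in the others. Same-numbered wild-type LPS and vehicle libraries deviated from their group means with r = −0.177 and −0.154 across genes. The deviations of 2 libraries from their mean mirror each other, so these values cannot decide whether the samples are paired. The results above are given without pairing, those of DAMPs against vehicle included. Between genotypes 1 gene, Dkk2, was called as reported. There were 0 calls with a pseudocount of 0.1 or a mean of at least 5 FPKM, and 0 to 11 calls with 1 library left out (0 to 5 higher and 0 to 6 lower), the most without wild-type LPS replicate 2. Without the libraries low in H2-Q7, chosen after seeing the data, there were 28 (21 higher and 7 lower), and Dkk2 was not called. Centring gave 2846 higher and 3054 lower genes for LPS against DAMPs. For a gene of 1 kb, levels under about 0.06 FPKM are those of 1 fragment.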

Other observations

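Long noncoding RNAs, which belong to none of the lists, changed at about the rate of all genes: of 434 tested, 87 were higher and 135 lower with LPS, with a median log2 fold change of −0.19. The examples were chosen after their values were seen. Mir155hg, the host transcript of the microRNA miR-155, had 0.0414, 0.0453 and 0.0763 FPKM in vehicle and 129 and 158 FPKM with LPS (log2 fold change 7.09). AW112010 had 10.9, 13.4 and 13.98 FPKM in vehicle and 511 and 962 FPKM with LPS (5.68). Ptgs2os2, next to Ptgs2 on chromosome 1, had 0.156, 0 and 0.0287 FPKM and then 20.2 and 15.5 FPKM (4.14). Gm15513 had 18.6, 13.7 and 13.1 FPKM in vehicle and 0.0300 and 0.107 FPKM with LPS (−3.90).

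Of 3210 called genes with at least 20 FPKM in the higher group and at least 1 FPKM in both LPS libraries, 34 differed by more than 2-fold between the LPS libraries, a count that the choice of called genes keeps low. Among those higher in replicate 3, Cxcl9 had 10.7 and 44.9 FPKM, Nos2 35.7 and 134 FPKM, and Cxcl11 77.1 and 261 FPKM in replicates 2 and 3. Higher in replicate 2 were Serpinb2, with 510 and 70.2 FPKM, Slpi, a protease inhibitor, with 199 and 70.2 FPKM, and Slc7a11, with 46.5 and 20.4 FPKM. With 1 library on each side these differences have no test.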
